A study of Mus musculus with 6 samples.

Results

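The genes described here are the ligands, receptors, secreted antagonists, Smads and immediate targets of TGF-beta and BMP signaling, chosen by name from a list of 55 symbols. Of these, 54 had a row among the 17606 genes of the deposited table, and Grem1 had none. After the filter on low counts, 51 of the 54 were tested among 13888 genes, and Bmpr1b, Nog and Smad9 were too low to test. RNA came from corneal keratocytes, the resident fibroblast-like cells of the corneal stroma, which were sorted by flow cytometry from mice aged 10 weeks that had received 3 doses of tamoxifen and were left for 1 month. The first group held 3 control libraries, and the second held 3 libraries labelled Ptch1-ablated, from mice carrying Prrx1-CreERT and floxed Ptch1. Ptch1 is the Hedgehog receptor that restrains the pathway, and Prrx1-CreERT is a tamoxifen-activated recombinase knocked into a gene of stromal cells. The study states that this driver also recombines in the corneal endothelium, that the floxed Ptch1 line was backcrossed to C57BL/6 and that mice of both sexes were used. Both groups received tamoxifen. The labels call the first group only ctrl, and they do not say which alleles it carried.

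TGF-beta family ligands are secreted dimers that bring together type II and type I serine/threonine kinase receptors at the cell surface. TGF-betas and activins act mainly through Smad2 and Smad3, BMPs mainly through Smad1, Smad5 and Smad9, and both branches use Smad4. TGF-betas are secreted in a latent form held in the matrix by latent TGF-beta binding proteins, whereas BMPs are restrained by secreted antagonists such as noggin, chordin and gremlin. In the cornea the TGF-beta branch is known for turning keratocytes into contractile, scar-forming myofibroblasts after injury, and the Id genes are textbook direct targets of the BMP branch.

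The libraries held 20258414 to 24788039 counts, and the upper limit of 3 counts behind a value of 0 was equal to 0.121 to 0.158 CPM (counts per 1000000 TMM-scaled counts). The control libraries held 172, 104 and 369 counts of Ptch1 itself, against 4348, 5194 and 6230 in the libraries labelled Ptch1-ablated. The total over all exons was thus higher in the libraries labelled as ablated, against a plain reading of the label. It does not separate the floxed exons from the rest of the transcript, so it does not check the deletion. Gli1, which together with Ptch1 belongs to the genes that Hedgehog signaling induces, rose from 1, 20 and 36 control counts to 3022, 3042 and 3098, the direction that loss of Ptch1 is known to give. The keratocyte markers summed to 105704 TPM (transcripts per 1000000, a scale corrected for transcript length) or more in every library. The first control library and the second library labelled Ptch1-ablated lay apart from the others of their groups on the second principal component, and for genes whose call changed without this pair the value without it is given as well.

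Of the 51 members tested, 10 passed the threshold, an adjusted p of at most 0.05, of which 8 were higher and 2 lower in the libraries labelled Ptch1-ablated. Over all genes tested, 8.48% passed the same threshold, 4.68% higher and 3.8% lower. The 8 that rose were the ligands Tgfb3, Bmp2, Bmp7 and Gdf10, the type I receptor Acvrl1, the matrix protein Ltbp2 and the target genes Id1 and Id3. The 2 that fell were the type II receptor Acvr2a and the secreted protein Fstl1. At a fold change of at least 2 as well, 5 members were called, all of them higher (Bmp2, Bmp7, Gdf10, Ltbp2 and Id3), where the share over all genes was 5.49% in either direction and 3.36% for higher genes. Without the second control library 6 members passed, and without both libraries set apart 13 passed and 10 were called at 2-fold. The calls of the 5 held under each of the 17 other settings that were run. Of the 5, Gdf10 had 0 counts in every control library and passed the low-count filter only through the libraries where it was high. The median log2 fold change was 0.15 over the 51 members and 0.0046 over all genes. In CPM, the 3 control libraries did not overlap the 3 others for 22 members, 43.1%, against 27.4% of all genes. Ranges printed below are in TPM and can differ, as for Tgfbr1, Ltbp1 and Ltbp4, which overlap only in TPM, and Skil, which overlaps only in CPM. Cells and RNA were pooled in each library, so more cells of a type and more RNA per cell cannot be told apart in any of these values.

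**Figure D1:**
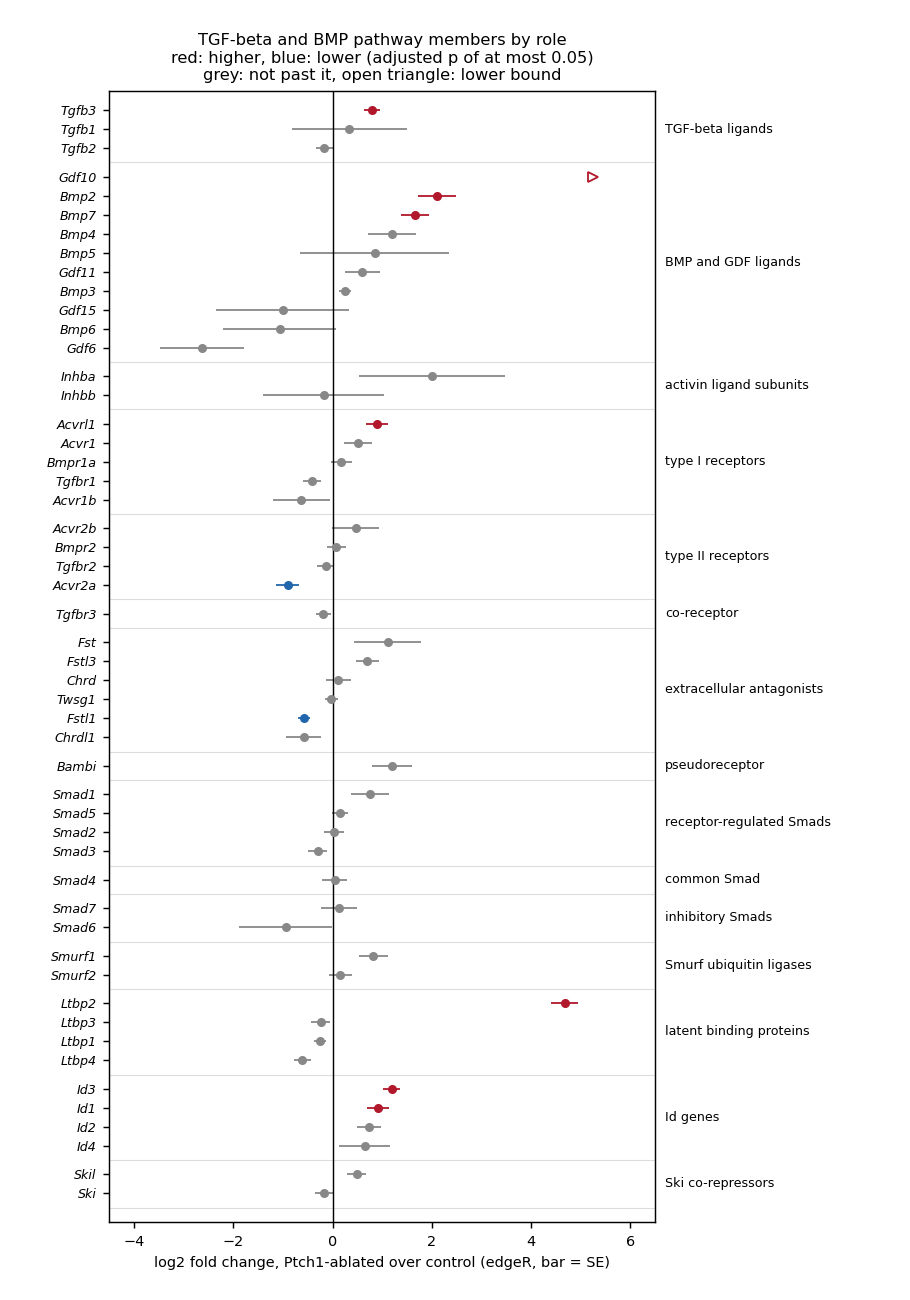
Log2 fold change with its SE (horizontal axis) of the 51 tested members, grouped by role, in the libraries labelled Ptch1-ablated over control (n = 3 each). Red and blue mark the 8 members higher and the 2 lower with an adjusted p not above 0.05, grey the other 41, and the open triangle is the lower bound for Gdf10, which had 0 counts in every control library.

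The members spanned a wide range of levels. By mean TPM over all 6 libraries, 7 members stood under 1 TPM, 15 between 1 and 10, 25 between 10 and 100, and 7 above 100. The 7 highest were Id3, Fstl1, Bmp3, Ltbp1, Id1, Tgfbr2 and Twsg1, so the most abundant transcripts were a BMP-family ligand, matrix and secreted binding proteins, the TGF-beta type II receptor and 2 target genes. Tgfb1, the ligand most often studied in corneal scarring, was among the lowest, at 0.60, 0.63 and 1.01 TPM in the control libraries and 1.5, 0.17 and 1.42 TPM in the others. The summed TPM of the 54 members was 2805 ± 177 (SD, n = 3) in the controls and 4076 ± 266 (SD, n = 3) in the libraries labelled Ptch1-ablated. Id genes made up most of that difference, with sums of 669 and 1670 TPM.

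**Figure D2:**
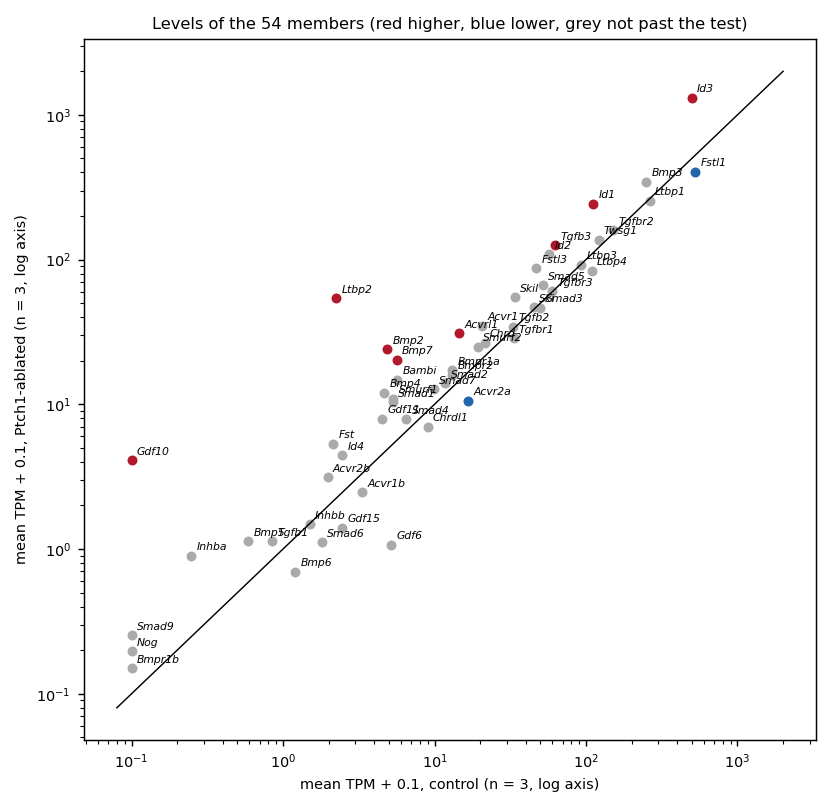
Mean TPM plus 0.1 of the 54 members in the control libraries (horizontal log axis) and in those labelled Ptch1-ablated (vertical log axis), n = 3 each, with the line of equal levels. Ltbp2, at 2.13 and 53.9 TPM, and Gdf10, at 0 and 4.02 TPM, lie farthest above the line, and Id3 and Fstl1 are the most abundant of the members that passed the test.

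Among the 3 TGF-beta ligands, Tgfb3 rose, while Tgfb1 and Tgfb2 did not pass the test. Tgfb3 stood at 73.2, 54.9 and 58.7 TPM in the control libraries and at 125, 140 and 112 TPM in those labelled Ptch1-ablated. The groups did not overlap, and the log2 fold change was 0.80 ± 0.16 (SE, adjusted p = 0.00847), which fell to 0.72 and lost its call without the second control library (adjusted p = 0.0581). The exons of Tgfb3, and likewise those of Acvrl1 and Acvr2a, overlap annotated genes on the opposite strand (Gm48008 over 257 bases, Gm16031 over 87 and Orc4 over 446), and their reads cannot be told apart if counting ignored strand. Tgfb2 had means of 32.9 and 34.2 TPM in the same order. Tgfb3 was the main TGF-beta ligand transcript in every library, and its share of the summed TPM of the 3 ligands was 64.7% ± 2.90 (SD, n = 3) in the controls and 78.2% ± 1.44 (SD, n = 3) in the libraries labelled Ptch1-ablated.

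Of the 10 BMP and GDF ligands, 3 rose and 0 fell past the threshold in the edgeR test, though DESeq2 also called Gdf6 lower. Bmp2, a potent inducer of bone and of mesenchymal differentiation, stood at 2.54, 6.76 and 4.97 TPM in the controls and at 19.6, 35.2 and 16.9 TPM in the libraries labelled Ptch1-ablated. Every one of the latter exceeded every control, with a log2 fold change of 2.10 ± 0.38 (SE, adjusted p = 0.00442). Without the pair of libraries set apart it was 1.47, still past the threshold. Bmp7, which is needed for development of the eye and kidney, stood at 4.25, 6.97 and 5.36 TPM in the controls and at 23.1, 17.7 and 19.7 TPM in the others. Its groups were also separate, and the log2 fold change was 1.66 ± 0.29 (SE, adjusted p = 0.00314). Gdf10, a ligand close to Bmp3 in sequence, was at 0 counts in all 3 controls and at 204, 179 and 44 in the libraries labelled Ptch1-ablated. Against the floor of 3 counts per control library, the mean CPM of these 3 libraries was at least 38.2-fold higher (adjusted p = 0.00186). That bound is for the mean, and the third library, at 44 counts, lay below it. Gdf10 entered the tested set only through the group where it was high, so its adjusted p adds no separate support.

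The most abundant BMP-family ligand was Bmp3, an unusual member that opposes the signaling of other BMPs. It stood at 214, 263 and 273 TPM in the controls and at 315, 386 and 337 TPM in the others, without overlap, but its log2 fold change of 0.26 ± 0.12 (SE) had an adjusted p of 0.276. It passed with library totals as the only scaling and in the filtered test on log2(TPM + 1). Bmp3 made up 89.9% ± 0.656 of the summed TPM of BMP and GDF ligands in the controls and 82.9% ± 1.71 in the libraries labelled Ptch1-ablated (SD, n = 3 each). Bmp4 had a log2 fold change of 1.19 with an adjusted p of 0.181, and passed in the filtered tests on log2(TPM + 1) and log2(TPM + 0.1). Gdf6, a ligand of joint and eye development, was counted 107, 217 and 204 times in the controls against 3, 63 and 31 times in the others, and its log2 fold change of -2.63 had an adjusted p of 0.0823. With the pair of libraries set apart left out, Gdf6 passed the test at -3.87. It also passed with DESeq2, with the replicate numbers as a block and in the filtered test on log2(TPM + 1). The other 4 ligands, Bmp5, Bmp6, Gdf11 and Gdf15, had log2 fold changes between -1.07 and 0.85, and none passed. The activin subunits were low. Inhbb was counted 0, 70 and 107 times in the controls against 66, 25 and 87 times in the others, and its log2 fold change of -0.18 ± 1.22 (SE, adjusted p = 0.964) reversed its sign under 8 settings. Inhba had means of 0.147 and 0.800 TPM and did not pass the test.

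**Figure D3:**
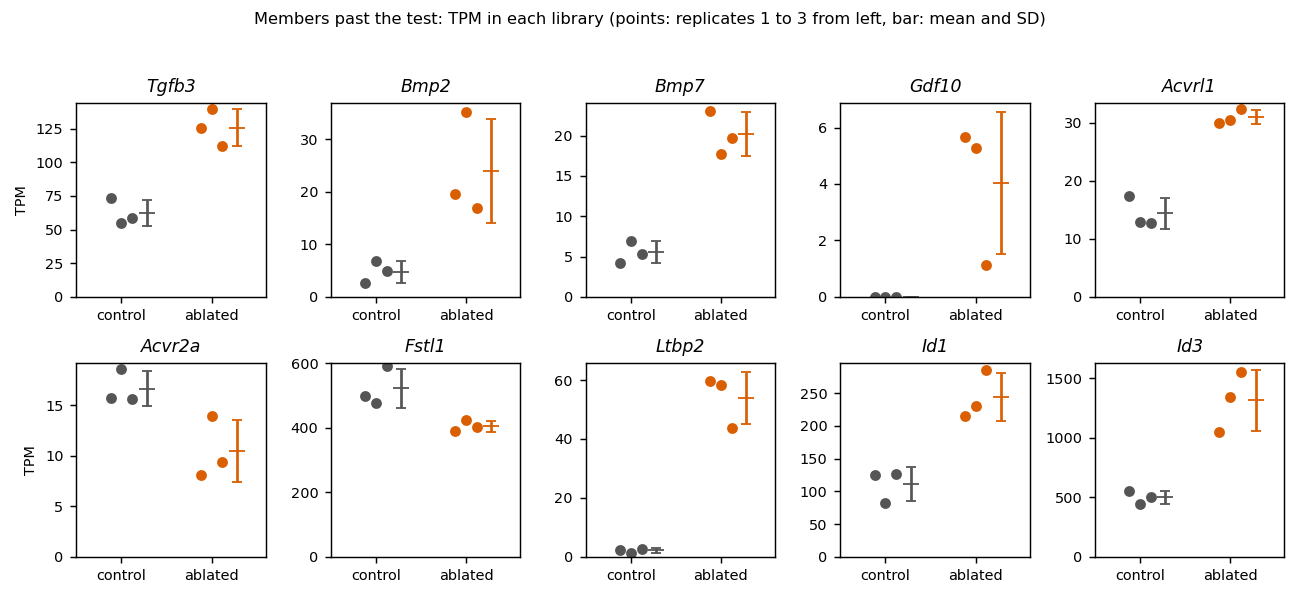
TPM (vertical axes, each from 0) of the 10 members that passed the test in each of the 6 libraries, with the mean and SD (n = 3) beside the points. For each of the 10 genes, the control points and the points labelled Ptch1-ablated occupy separate ranges, with 8 genes higher and Acvr2a and Fstl1 lower.

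Of the receptors, 1 of the 5 tested type I receptors and 1 of the 4 type II receptors passed the threshold, in opposite directions. Acvrl1, also called ALK1, is the type I receptor of endothelial cells for BMP9 and BMP10. It stood at 17.4, 12.9 and 12.8 TPM in the controls and at 29.97, 30.47 and 32.32 TPM in the libraries labelled Ptch1-ablated, a log2 fold change of 0.90 ± 0.22 (SE, adjusted p = 0.0268). The groups were separate, but the call was lost when any library other than the first control was left out, at 0.80 to 0.95. Markers of vascular endothelium moved with it: 5 of 8 were higher past the threshold, against 4.68% of all genes. Their summed level was 321 to 415 TPM in the controls and 600 to 644 TPM in the others. No marker of that list was at 0 throughout, and its part in the value of Acvrl1 was not tested. Acvr2a, a type II receptor for activins and BMPs, stood at 15.7, 18.6 and 15.6 TPM in the controls and at 8.07, 13.9 and 9.42 TPM in the others. Its log2 fold change was -0.91 ± 0.23 (SE, adjusted p = 0.0300). This call was lost, at -0.78 to -0.96, without the second or the third control library or without the first or the third library labelled Ptch1-ablated. It was also lost with library totals as the only scaling and in the tests on log2 TPM.

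The receptors for TGF-beta itself did not pass the test. Tgfbr1, its type I receptor, stood at 27.5, 35.1 and 36.8 TPM in the controls and at 23.8, 32.2 and 29.8 TPM in the others, with a log2 fold change of -0.42 ± 0.18 (SE, adjusted p = 0.208). Acvr1, at 20.6 ± 4.32 and 34.8 ± 14.0 TPM (SD, n = 3), had a log2 fold change of 0.51 (adjusted p = 0.335). It was the most abundant type I receptor in the second library labelled Ptch1-ablated, and Acvrl1 was so in the first and the third. Tgfbr2, the type II receptor for TGF-beta, was the most abundant receptor in every library, at 159, 135 and 160 TPM in the controls and 197, 149 and 130 TPM in the others. Its log2 fold change was -0.14 ± 0.16 (SE, adjusted p = 0.703). Tgfbr3, or betaglycan, the co-receptor that presents TGF-beta to Tgfbr2, stood at 47.8, 60.5 and 69.4 TPM and at 54.9, 68.5 and 57.9 TPM, with a log2 fold change of -0.18 ± 0.16 (SE, adjusted p = 0.593). The signs of Tgfbr2 and Tgfbr3 turned in the tests on log2 TPM, and that of Tgfbr2 also with library totals as the only scaling. The remaining tested receptors, Acvr1b, Bmpr1a, Acvr2b and Bmpr2, had log2 fold changes between -0.63 and 0.46. Bmpr1b had no count in the controls and 0, 7 and 0 counts in the others, which is too little for a comparison. The decoy receptor Bambi, which lacks a kinase domain and is induced by BMP and TGF-beta, stood at 5.41, 5.70 and 5.51 TPM in the controls and at 18.0, 9.57 and 16.5 TPM in the others. These ranges were separate, with a log2 fold change of 1.2 ± 0.40 (SE, adjusted p = 0.101). Bambi passed the test without the second library labelled Ptch1-ablated, at 1.46, and without the pair of libraries set apart, at 1.44. It also passed in the filtered tests on log2(TPM + 1) and log2(TPM + 0.1).

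Of the secreted antagonists and binding proteins, 6 were tested, and Fstl1 fell. Fstl1, follistatin-like 1, is a secreted glycoprotein that binds TGF-beta family ligands, and it was the most abundant of these proteins' transcripts. It stood at 500, 477 and 591 TPM in the controls and at 389, 424 and 402 TPM in the libraries labelled Ptch1-ablated, without overlap, with a log2 fold change of -0.58 ± 0.12 (SE, adjusted p = 0.00816). The call was lost in the 3 tests on log2 TPM, where the smallest value was -0.36. Keratocyte markers moved the same way: 8 of 11 tested were lower past the threshold and none higher, against 3.8% of all genes lower. Their summed level was 141041 to 168785 TPM in the controls and 105704 to 117424 TPM in the others, and their part in the value of Fstl1 was not tested. Fstl3, which traps activin, stood at 44.4, 45.9 and 49.9 TPM and at 98.2, 63.6 and 99.4 TPM, with a log2 fold change of 0.70 and an adjusted p of 0.0855. It passed without the second library labelled Ptch1-ablated, at 0.92, and without the pair of libraries set apart, at 0.88. It also passed with DESeq2, with library totals as the only scaling and in the 3 tests on log2 TPM. Its exons overlap those of Prss57 on the opposite strand over 1157 bases in a reference annotation, and reads of the pair cannot be told apart if counting ignored strand. Chrd, Chrdl1, Fst and Twsg1 had log2 fold changes between -0.58 and 1.11, and none passed. Nog had no count in the controls and 5, 0 and 0 in the others.

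The Smads, Smurf ubiquitin ligases and Ski co-repressors carry the signal inside the cell or restrain it there. Of the 11 tested, 0 passed the edgeR test and 0 passed with DESeq2. Over all genes 8.48% passed with edgeR and 10.3% with DESeq2, so 0 of 11 is near these shares. The edgeR test gave 2 of them, Smurf1 and Skil, an unadjusted p under 0.05, as it did 2854 of all 13888 genes. Smad5, the most abundant receptor-regulated Smad, stood at 42.8, 49.6 and 63.0 TPM in the controls and at 67.4, 67.8 and 63.9 TPM in the others, a log2 fold change of 0.15 ± 0.16 (SE, adjusted p = 0.668). Smad1, Smad2 and Smad3 had log2 fold changes of 0.75, 0.028 and -0.30, and that of Smad2 turned negative with upper quartile scaling. Smad9 had no count in the controls and 1, 1 and 24 counts in the others. Smad4, the common partner, stood at 7.42, 5.67 and 6.13 TPM and at 7.11, 8.59 and 7.76 TPM, with a log2 fold change of 0.042 ± 0.25 (SE, adjusted p = 0.959). Smad7, an inhibitory Smad induced by TGF-beta, stood at 15, 6.57 and 7.69 TPM and at 12.1, 16.7 and 9.11 TPM, with a log2 fold change of 0.13 ± 0.37 (SE, adjusted p = 0.903). Smad6, the inhibitory Smad of the BMP branch, stayed at or below 3.01 TPM in every library. Smurf2, a ubiquitin ligase that removes receptors and Smads, stood at 23.8, 15.5 and 18.3 TPM and at 25.9, 20.3 and 28.4 TPM, with a log2 fold change of 0.15 ± 0.24 (SE, adjusted p = 0.791). Its relative Smurf1 had separate ranges of 4.10 to 7.23 and 9.21 to 11.7 TPM, with a log2 fold change of 0.82 and an adjusted p of 0.130. The co-repressor Ski stood at 54.9, 41.8 and 39.0 TPM and at 51.0, 53.0 and 36.9 TPM, with a log2 fold change of -0.16 ± 0.19 (SE, adjusted p = 0.703). Skil, a related co-repressor and a TGF-beta target, had a log2 fold change of 0.49 with an adjusted p of 0.160. It passed with library totals as the only scaling. The SEs were 0.16 to 0.37 for the most abundant gene of each of these roles, and 0.94 for Smad6. Smurf1, at 0.82 with an SE of 0.30, did not pass, so changes of that size could be missed in these 6 libraries.

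Ltbp2 showed the largest fitted change of the members that were detected in both groups. Its protein belongs by sequence to the latent TGF-beta binding proteins but does not bind latent TGF-beta, and it associates with the fibrillin microfibrils of elastic tissue and the ciliary zonule. It rose from 118, 75 and 189 control counts to 3980, 3642 and 3175 counts in the libraries labelled Ptch1-ablated, or 2.41, 1.22 and 2.77 TPM against 59.8, 58.2 and 43.8 TPM. The lowest of the latter was far above the highest control, and the log2 fold change was 4.67 ± 0.28 (SE, adjusted p = 8.11e-07). It lies opposite the antisense gene D030025P21Rik over 764 annotated bases, and reads of the pair cannot be told apart if counting ignored strand. Its share of the summed TPM of the 4 latent binding proteins was 0.456% ± 0.169 (SD, n = 3) in the controls and 11.1% ± 0.744 (SD, n = 3) in the others. Ltbp1, which does hold latent TGF-beta in the matrix, was the most abundant, at 228, 270 and 292 TPM and at 252, 272 and 239 TPM, with a log2 fold change of -0.26 ± 0.12 (SE, adjusted p = 0.246). Ltbp4 had a log2 fold change of -0.61 with an adjusted p of 0.0581, and passed without the first library labelled Ptch1-ablated, at -0.77. Ltbp3, at means of 92.3 and 91.8 TPM, did not pass.

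The Id genes encode proteins that bind and inactivate basic helix-loop-helix factors, and all 4 had positive log2 fold changes, with 2 past the threshold. Id3 stood at 551, 443 and 502 TPM in the controls and at 1047, 1340 and 1555 TPM in the libraries labelled Ptch1-ablated. It was the most abundant member in each of the latter, the groups were far apart, and the log2 fold change was 1.19 ± 0.17 (SE, adjusted p = 0.000751). Id1 stood at 125, 81.4 and 127 TPM in the controls and at 216, 230 and 285 TPM in the others, again separate, with a log2 fold change of 0.91 ± 0.22 (SE, adjusted p = 0.0244). Its call was lost without the second control library, at 0.73, or without the third library labelled Ptch1-ablated, at 0.75. Id2, at 45.7, 51.9 and 73.2 TPM and at 92.0, 99.8 and 133 TPM, was separate as well, with a log2 fold change of 0.73 and an adjusted p of 0.102. Id2 passed with DESeq2, with library totals as the only scaling and in the filtered tests on log2(TPM + 1) and log2(TPM + 0.1). Id4 was low, with means of 2.35 and 4.34 TPM. Summed, the Id genes stood at 669 ± 78.9 TPM (SD, n = 3) in the controls and 1670 ± 309 TPM (SD, n = 3) in the others, a ratio of 2.50 on the TPM scale. Endothelial cells also express Id1 and Id3 strongly, and the rise in the vascular endothelial markers given above ran beside these values, and its part in them was not tested.

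Promoter sequence was at hand in RefSeq's GRCm38.p6 annotation for 38 of the 54 members, and for 5 of the 10 that passed the test: Gdf10, Acvr2a, Fstl1, Ltbp2 and Id3. The deposited values were made on mm9, so these sequences are shown for the genes and not as positions of any measurement. The 3 called at a fold change of at least 2 are printed as the 250 bases before the annotated start, 5′ to 3′ on the gene's strand. Capitals mark CAGAC, the short Smad-binding element, or its reverse complement. Gdf10 lies at chr14:33923337-33923586 on the plus strand, Ltbp2 at chr12:84876492-84876741 on the minus strand and Id3 at chr4:136143572-136143821 on the plus strand.
Gdf10: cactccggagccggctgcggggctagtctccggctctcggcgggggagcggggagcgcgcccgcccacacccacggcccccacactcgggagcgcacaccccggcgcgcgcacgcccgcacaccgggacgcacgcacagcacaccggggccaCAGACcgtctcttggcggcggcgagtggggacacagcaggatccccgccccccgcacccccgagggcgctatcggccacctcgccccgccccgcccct
Ltbp2: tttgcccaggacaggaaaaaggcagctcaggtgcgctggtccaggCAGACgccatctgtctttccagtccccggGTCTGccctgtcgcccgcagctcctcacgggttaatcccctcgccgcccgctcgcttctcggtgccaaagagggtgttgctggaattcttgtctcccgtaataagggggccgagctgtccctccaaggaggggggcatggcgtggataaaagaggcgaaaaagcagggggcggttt
Id3: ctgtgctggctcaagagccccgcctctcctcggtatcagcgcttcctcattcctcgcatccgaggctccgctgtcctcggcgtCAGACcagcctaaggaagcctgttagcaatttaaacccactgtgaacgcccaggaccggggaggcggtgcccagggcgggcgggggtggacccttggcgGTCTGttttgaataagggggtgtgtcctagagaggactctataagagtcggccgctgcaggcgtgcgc
Both strands were searched, and none of the motifs contains another. CAGAC occurred in 4 of the 5 promoters, Fstl1 being the exception, and in 42.2% of 32851 mouse promoters of the same length. Over all members it occurred in 22 of 47 promoters. The GC-rich Smad motif GGCGCC occurred in none of the 5 and in 12 of the 47, against 9.59% of all promoters. Neither the palindrome GTCTAGAC, held by 0.167% of all promoters, nor the Gli consensus GACCACCCA, held by 0.225%, occurred in any of the 47. A match here describes letters in a window and does not mark a bound site.

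Genes of the wider pathway that are not among the members were taken from a second list, of which 58 were tested. Of these, 12 passed the threshold, 20.7%, with 7 higher and 5 lower, where 8.48% of all genes passed, and the median log2 fold change was 0.17. Secreted BMP antagonists moved in both directions. Nbl1, the founding member of the DAN family of BMP antagonists, stood at 45.8, 41.8 and 16.4 TPM in the controls and at 546, 352 and 308 TPM in the libraries labelled Ptch1-ablated, for a log2 fold change of 3.33 ± 0.36 (SE, adjusted p = 9.8e-05). Sostdc1, which restrains BMP and Wnt signaling, rose from a mean of 8.68 to 37.9 TPM, a log2 fold change of 1.91 ± 0.33 (SE, adjusted p = 0.00312). Bmper, a chordin-like protein that binds BMPs, stood at 286, 331 and 348 TPM in the controls and at 109, 118 and 80.5 TPM in the others, with a log2 fold change of -1.87 ± 0.15 (SE, adjusted p = 8.91e-06). Smoc2, a matricellular protein chosen here after its values were seen, fell from a mean of 1725 to 956 TPM, a log2 fold change of -1.06. The groups did not overlap for any of these 4 genes.

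Among the genes of latency, matrix storage and activation, 5 of 16 passed. Tll2, a metalloproteinase of the tolloid family, stood at 21.1, 26.3 and 28.2 TPM in the controls and at 1.79, 1.07 and 2.28 TPM in the others, with a log2 fold change of -4.06 ± 0.31 (SE, adjusted p = 5.73e-06). Fbn2, a fibrillin of the microfibrils that store TGF-beta family ligands, rose from a mean of 1.10 to 6.08 TPM, with a log2 fold change of 2.25 ± 0.34 (SE, adjusted p = 0.00115). Itgb8, Itgb5 and Thbs1, all chosen after their values were seen, take part in activating latent TGF-beta, and their log2 fold changes were 1.17, -0.79 and -0.73. The call of Itgb8 was lost without the second control library or without the second or the third library labelled Ptch1-ablated, at 1.06 to 1.13, without the pair of libraries set apart, at 1.05, and in the test on log2 TPM with no filter. That of Itgb5 was lost without any library other than the first labelled Ptch1-ablated, at -0.86 to -0.62, and without the pair, at -0.48, and that of Thbs1 without the second control, at -0.66. Both calls were also lost in the tests on log2(TPM + 0.1) and on log2(TPM + 1) with no filter. That of Itgb5 was lost with library totals as the only scaling as well. Of the other receptors and co-receptors, 2 of 3 tested passed. Rgmb, a BMP co-receptor, rose from a mean of 9.96 to 33.9 TPM, with a log2 fold change of 1.62 ± 0.24 (SE, adjusted p = 0.000924). Eng, or endoglin, a co-receptor that works with Acvrl1 in endothelium and was likewise chosen after its values were seen, had a log2 fold change of 0.48 with an adjusted p of 0.0424, and the part of the higher vascular endothelial markers in it was not tested. Its call was lost without any of the 6 libraries, at 0.35 to 0.55, and without the pair set apart, at 0.53. Of 21 intracellular regulators, Tgif2, a Smad co-repressor chosen after its values were seen, was the single gene past the threshold, at 0.72, and its call was lost without any library other than the second labelled Ptch1-ablated, at 0.58 to 0.80. The calls of Eng and Tgif2 were also lost with upper quartile scaling and with the replicate numbers as a block.

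Of 26 tested genes commonly listed as TGF-beta targets, 16 passed, 61.5%, where 8.48% of all genes passed. The list was chosen with earlier results of these data known. Of the 16, 9 were higher and 7 lower, and 15 of the 21 listed genes that are not members passed. Of 3 genes of the contractile apparatus on this list, 2 rose: Acta2, smooth muscle actin, from a mean of 83.4 to 249 TPM (log2 fold change 1.40 ± 0.16, SE, adjusted p = 0.000147), and Tagln, transgelin, from 30.3 to 101 TPM (1.53 ± 0.22, SE, adjusted p = 0.000786). The other, Cnn1, or calponin, chosen after its values were seen, had means of 1.44 and 0.847 TPM and a log2 fold change of -1.36 (adjusted p = 0.673). Acta2 and Tagln are also made by mural cells of vessels, of whose 8 markers 4 were higher past the threshold, against 4.68% of all genes. The summed level of these markers was 392 to 470 TPM in the controls and 681 to 765 TPM in the others, with none at 0 throughout. Their part in the values of Acta2 and Tagln was not tested. Ccn2, connective tissue growth factor, stood at 83.1, 95.8 and 119 TPM in the controls and at 475, 504 and 513 TPM in the libraries labelled Ptch1-ablated, for a log2 fold change of 2.12 ± 0.15 (SE, adjusted p = 4.21e-06). Cdkn1a, the cell cycle inhibitor p21, had a log2 fold change of 1.36 ± 0.14 (SE, adjusted p = 8.11e-05). The matrix genes of the list moved apart. Col3a1 rose from a mean of 39.4 to 390 TPM, a log2 fold change of 3.10 ± 0.30 (SE, adjusted p = 3.53e-05). Col1a1 and Fn1, named after their values were seen, fell by 1.06 and by 1.23 on the log2 scale (Col1a1 is also on the keratocyte marker list), and Tgfbi, Postn and Lox, named on the same footing, were lower as well, at -0.82, -0.64 and -0.80. The call of Postn was lost without any library other than the third labelled Ptch1-ablated, at -0.67 to -0.52, and without the pair set apart, at -0.69. It was also lost with library totals as the only scaling, with the replicate numbers as a block and in the tests on log2 TPM. In the test on log2 TPM with no filter Col1a1 and Lox lost their calls too, and Lox did so on log2(TPM + 0.1) as well.

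Of 18 tested BMP target genes, on a list likewise chosen with earlier results known, 5 passed, 27.8%, where 8.48% of all genes passed. Of the 5, 4 were higher and 1 lower, and the median log2 fold change over the 18 was 0.69. The higher ones were Id1 and Id3, described above, and Sp7 and Hey1, and the lower one was Bmper. Sp7, the bone transcription factor osterix, went from 42, 0 and 5 control counts to 258, 356 and 319 counts in the libraries labelled Ptch1-ablated, for a log2 fold change of 4.16 ± 0.98 (SE, adjusted p = 0.0196). The first control carried most of the control counts, and the value was 6.73 without it and 6.60 without the pair set apart. The call of Sp7 was lost without the third control or without any library labelled Ptch1-ablated, at 3.72 to 4.27. Sp7 also passed the low-count filter mainly through the libraries labelled Ptch1-ablated. Hey1, a transcriptional repressor that Notch also induces, went from 139, 110 and 144 control counts to 316, 489 and 332 counts in the others, a log2 fold change of 1.37 ± 0.34 (SE, adjusted p = 0.0273). Its call was lost without any library other than the first control, at 1.13 to 1.47, and without the pair of libraries set apart, at 1.15. It was also lost with the replicate numbers as a block. Leaving out the third library labelled Ptch1-ablated reduced the number of BMP target genes past the threshold from 5 to 2.

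**Figure D4:**
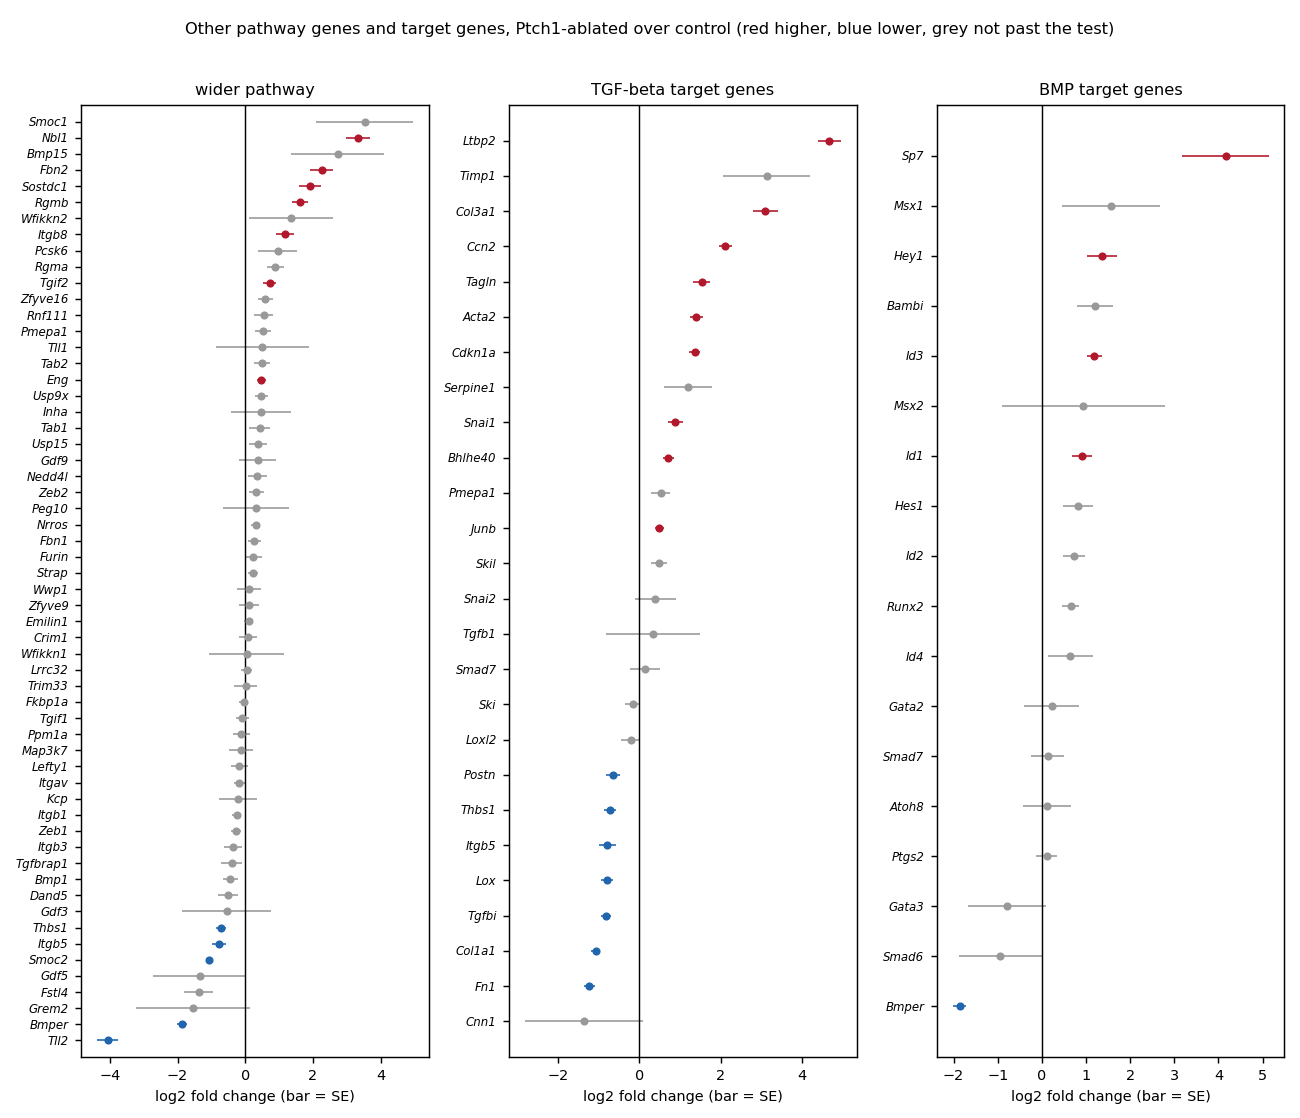
Log2 fold change with its SE (horizontal axes) of the 58 tested genes of the wider pathway, the 26 TGF-beta target genes and the 18 BMP target genes, in the libraries labelled Ptch1-ablated over control (n = 3 each). Red genes were higher and blue genes lower with an adjusted p not above 0.05, and genes of the TGF-beta target list lie on both sides of 0, with 9 red and 7 blue.

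The same libraries were examined for markers of other cells that a sort of corneal stroma could hold. Corneal epithelial markers were low throughout and lower in the libraries labelled Ptch1-ablated, at 50.8 to 89.5 TPM in the controls and 3.78 to 9.16 TPM in the others. Leukocyte markers ranged from 1429 to 1625 TPM and from 1405 to 1798 TPM, and those of corneal endothelium, where the driver also acts, from 609 to 690 and from 485 to 701 TPM. Schwann cell markers stood at 131 to 150 and 195 to 214 TPM, and melanocyte markers at 5.83 TPM or less. Past the threshold, 1 epithelial marker was higher and 3 lower of 6 tested, 1 Schwann cell marker was higher of 6, 1 leukocyte marker was higher of 7, and 1 corneal endothelial marker was higher and 1 lower of 6. Over all genes tested, 4.68% were higher and 3.8% lower past it. The vascular endothelial, mural and Schwann cell sums were thus the ones higher in every library labelled Ptch1-ablated than in any control.

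**Figure D5:**
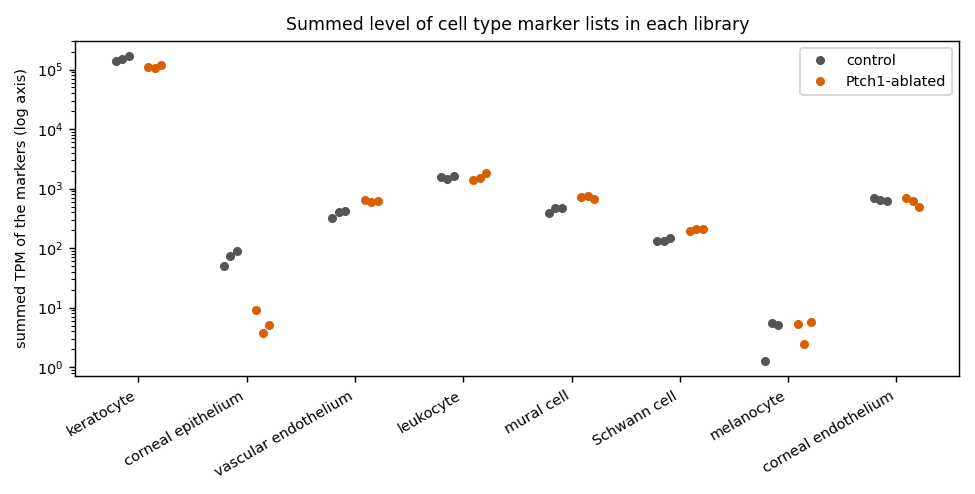
Summed TPM (vertical log axis) of 8 lists of cell type markers in each of the 6 libraries, with 3 points per group. Keratocyte markers reach 105704 TPM or more in every library, and the vascular endothelial, mural and Schwann cell sums are higher in all 3 libraries labelled Ptch1-ablated than in any control.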

How the data were processed

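RNA was measured in 6 libraries of sorted corneal keratocytes, 3 control and 3 labelled Ptch1-ablated, which the study's methods describe as biological replicates. The sample titles gave the groups and the replicate numbers. Per the labels, RNA was isolated with Trizol and a TruSeq kit was used for the libraries, whereas the study's methods name Ribo-Zero Gold and BGISEQ-500. Per the submitters' processing notes the authors used Bowtie2 2.2.5, RSEM 1.2.12 and build mm9, and neither annotation nor strandedness is given in the sources used here. The deposited file gives, for each gene, RSEM expected counts without normalization (18.6% are not whole), TPM values that the authors scaled by transcript length and to a common sum, and FPKM values and group averages, which were not used.

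Expected counts were rounded. Genes kept by filterByExpr were scaled by TMM and compared with edgeR 4.0.16 (two-sided quasi-likelihood test without covariates), and p-values were adjusted by Benjamini-Hochberg over the 13888 genes, the source of every adjusted p given. The SE is the log2 fold change divided by the root of F. Groups with no library above 3 counts count as at the floor. A fold against it is the mean CPM of the other group over the CPM that 3 counts represent in the library where they represent most. These limits cover counting error only. Folds from edgeR are relative to the TMM-scaled total, and without TMM the median log2 fold change of all genes was 0.17, so ratios of TPM can differ from them.

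The members and all other lists were chosen with earlier results of these data known. Values per library, fold, SE and adjusted p are given for each member past the threshold, for the most abundant member of each role and for members at the floor, and other members by range or value. Of the other lists, at most the 6 called genes with the largest change are named, and any further gene is said to be chosen after its values were seen. List counts were read against the share over all genes and carry no test. Alternatives were DESeq2 1.42.0, other scalings and filters, limma 3.58.1 on log2(TPM + 1) and log2(TPM + 0.1), a replicate block, each library left out, and, added after the data were seen, both libraries set apart left out. Scripts were tested on simulated data. Motif searches used Python 3 and RefSeq promoters, and overlaps of genes the GENCODE M21 annotation.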

Additional observations from a re-analysis of the deposited data

How the results depend on the processing

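Alternatives were run for 60 genes, among them each gene named with its own fold change except Ptch1, Gli1 and members given by range. Of the 60, 37 passed the test, 20 of these passed in all 17 alternatives, and none of the 37 reversed its sign. Without each library in turn, members past the test numbered 6 to 11, members called at 2-fold 5 to 7, genes past the test in all 778 to 1015, wider pathway genes 8 to 10, TGF-beta target genes 11 to 14 and BMP target genes 2 to 5. The lowest count of members, 6, came without the second control library, which lost Tgfb3, Acvrl1, Acvr2a and Id1. DESeq2 called 1813 genes, 14 members and 8 BMP target genes. Members called at 2-fold numbered 11 with limma on log2(TPM + 1), 10 on log2(TPM + 0.1), 8 on log2(TPM + 1) with no filter and 10 without both libraries set apart, and 9 BMP target genes passed with either pseudocount. The cause was not tested. With library totals as the only scaling, the median of all genes moved to 0.17, and 1024 genes were higher and 386 lower, against 650 and 528. With limma the median was 0.20, 0.22 and 0.19 in the order given above, and 1201 were higher and 456 lower, 1053 and 392, and 755 and 302.

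The replicate numbers were used as a block as well. Deviations of same-numbered libraries correlated at -0.022, -0.063 and 0.039, so no shared pattern by number was seen. Deviations from means of 3 libraries cannot exclude a pairing. With the block, 942 genes, 11 members, 10 wider pathway genes, 15 TGF-beta and 4 BMP target genes passed, of which 9 members were shared with the fit without it (Acvrl1 was lost, and Ltbp4 and Gdf6 passed).

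Of the 60 genes, 7 reversed their sign, none of them past the test. Inhbb was 0.00016 with library totals only, 0.46 with the block, 0.13, 0.81 and 0.13 in the 3 limma fits, and -0.77 to 0.42 without each library in turn. Tgfbr2 was 0.022 with library totals only and 0.051, 0.051 and 0.051 with limma, Tgfbr3 0.039, 0.040 and 0.039, and Ski 0.050, 0.051 and 0.050, and -0.28 to 0.012 without each library. Smad4 was -0.0050 with upper quartile scaling and -0.046 to 0.18 without each library. Smad2 was -0.018 with upper quartile scaling and -0.096 to 0.14 without each library. Smad7 was -0.086 to 0.62 without each library.

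These libraries hold 3 samples per group, and the smallest p of an exact two-sided permutation test at that size is 0.1. Smaller p-values therefore rest on the count model of edgeR, in which the spread of each gene is moderated over genes. Members under 1 TPM were near the limit of detection. Strand and annotation are not given, and Tgfb3, Acvrl1, Acvr2a and Ltbp2 overlap genes on the opposite strand.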
